A study of Mus musculus with 5 samples.

Results

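This account covers 31 genes of fatty acid uptake and beta oxidation, chosen by name from the gene column of the deposited tables, out of 19061 genes listed. All 31 had a value in each of 5 libraries and all passed the filter on low values, with 198 to 167299 recovered reads per gene and library. The libraries were made from hearts of C57BL/6 mice that all carried a calcineurin transgene. In the line that the labels cite, the alpha myosin heavy chain promoter drives an activated calcineurin in cardiomyocytes, and the hearts become hypertrophic. In 3 libraries the mice had been given JIB-04, which inhibits histone demethylases of the Jumonji family, at 50 mg/kg, 3 times a week from an age of 4 weeks. In 2 libraries the mice had been given vehicle, also 3 times a week from an age of 4 weeks. Every heart was taken at postnatal day 158. Hearts without the transgene were not analysed here, so the values compare JIB-04 with vehicle within the hypertrophic heart only. The labels give no sex, litter, batch or date. Whether the libraries stand for separate animals is not written out, so p-values measure the spread between these libraries, which may be technical.

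The adult heart draws most of its energy from long chain fatty acids. Lipoprotein lipase frees them from circulating lipoproteins at the capillary wall, CD36 and fatty acid transport proteins carry them across membranes, and a binding protein moves them through the cytosol. They are joined to coenzyme A, passed into mitochondria as carnitine esters, and shortened by rounds of dehydrogenation, hydration, a further dehydrogenation and thiolysis. The electron transfer flavoprotein hands the electrons of the acyl-CoA dehydrogenases to the respiratory chain. Peroxisomes run a related pathway for very long chain and branched acids.

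With JIB-04, no gene of the set passed the test, and 30 of 31 had a negative log2 fold change of small size (96.8% of the members, against 53.1% of the 14414 genes tested). The values ran from -0.25 for Slc27a1 to 0.02 for Hsd17b4, with a median of -0.12, where the median of all genes tested was -0.01. With plain library totals 29 were negative, Cpt1b having turned positive, and the median of all genes tested was 0.04. The count depended on the libraries kept. It was 18 negative and 13 positive without JIB-04 replicate 2, and 23 and 8 without vehicle replicate 2. All 31 were negative without JIB-04 replicate 1 or without vehicle replicate 1. These log2 fold changes are JIB-04 minus vehicle on the log2(CPM + 1) scale. None of the 31 passed limma's test at a Benjamini-Hochberg adjusted p under 0.05 over all genes, nor did any other gene (0 of 14414, or 0.0%). The smallest adjusted p of the set was 0.75, for Acads. At an unadjusted p under 0.05, 1 member was lower and 0 were higher, where 2.51% of all genes were lower and 3.93% higher. The edgeR and limma-voom fits of the recovered reads called 0 members and 0 genes at the same threshold. DESeq2 called 0 members and 85 genes, 69 higher and 16 lower (0.561% of the 15151 genes it gave an adjusted p, and 0.106% lower).

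The JIB-04 libraries differed among themselves. JIB-04 replicate 2 lay below both vehicle libraries in 30 of 31 members, where 43.9% of all genes did so, above both in 0 (37.5% of all genes), and was the lowest of the 5 libraries in 27, against 29.5% of all genes. JIB-04 replicate 1 was the lowest in 1 member (19.6% of all genes) and JIB-04 replicate 3 in 2 (19.9%). JIB-04 replicate 1 lay above both vehicle libraries in 17 members (36.8% of all genes) and below both in 2 (34.6%). JIB-04 replicate 3 lay below both in 18 (41.7%) and above both in 0 (34.3%). The vehicle libraries differed too, with vehicle replicate 1 below vehicle replicate 2 in 28 members (53.0% of all genes). In 25 of 31 members the difference between group means was smaller than the SD of the JIB-04 libraries. Groups overlapped in 29 members. In the other 2, Acads and Acot13, all 3 JIB-04 values lay under the lower vehicle value, or 6.45% of the members against 12.0% of all genes tested. These counts describe 5 libraries, since the genes of a library share its source.

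**Figure D1:**
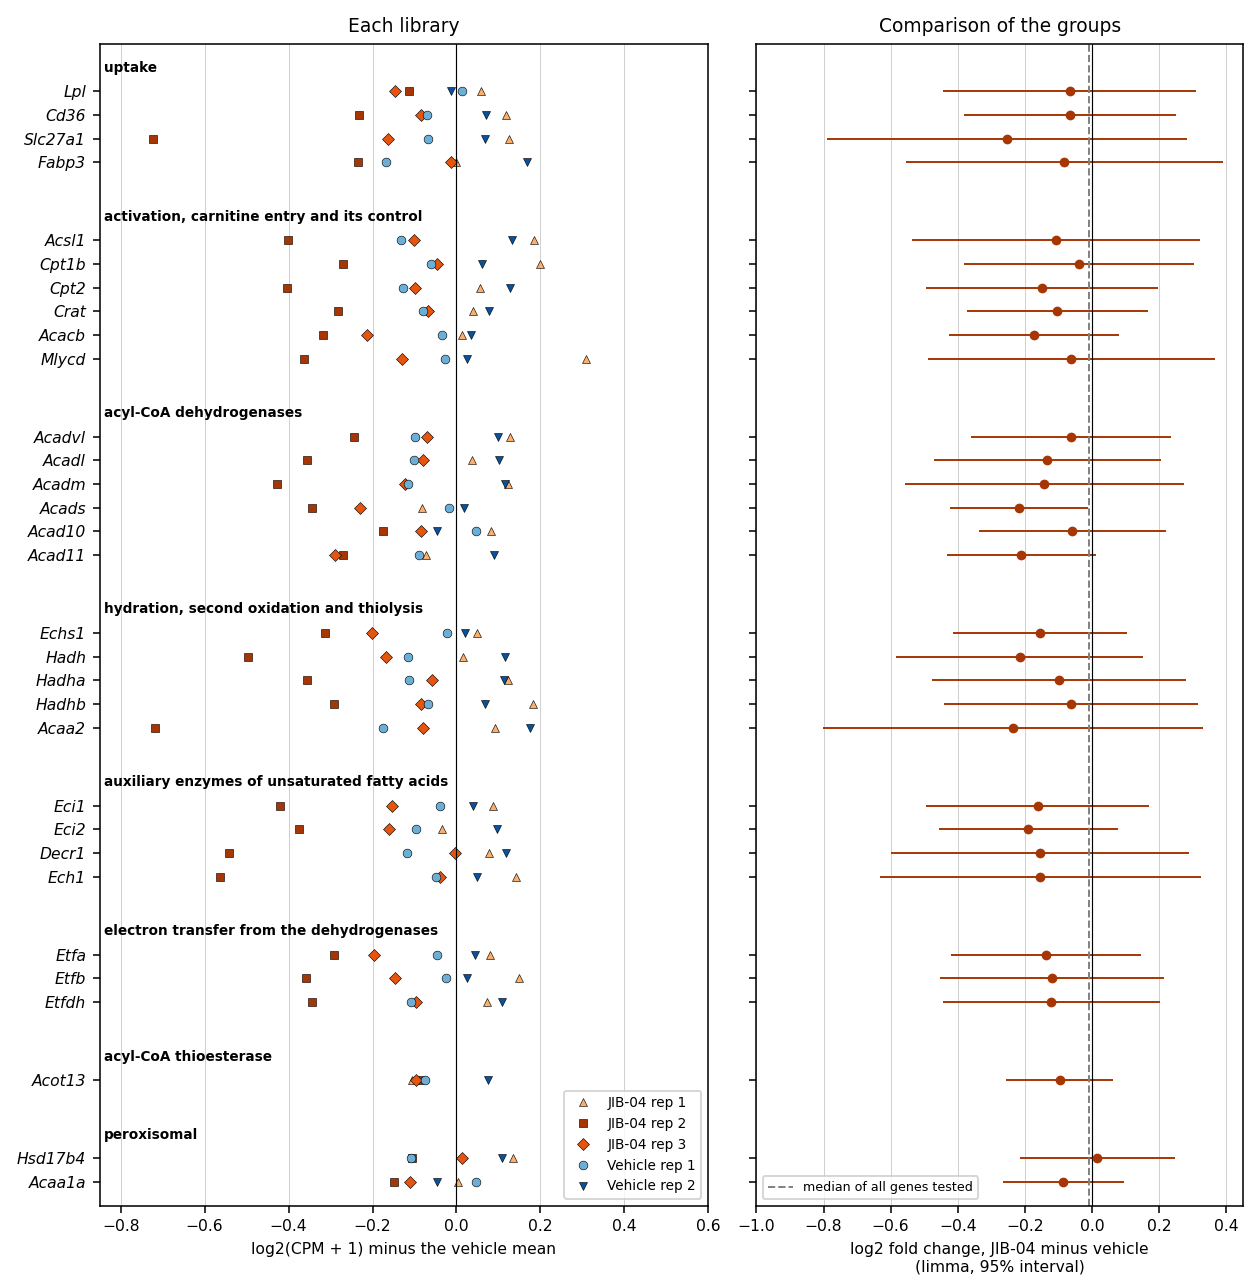
Left, log2(CPM + 1) of each gene in each library minus the mean of the vehicle libraries, with genes grouped by step, triangles, squares and diamonds for JIB-04 replicates 1, 2 and 3 and circles and inverted triangles for vehicle replicates 1 and 2. Right, the log2 fold change of JIB-04 minus vehicle with its 95% interval from limma. JIB-04 replicate 2 lies left of both vehicle libraries in 30 of 31 genes, and 30 of 31 intervals include 0.

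Summed over the 31 genes, the level was 23760, 18500 and 21180 CPM in JIB-04 replicates 1, 2 and 3, against 21200 and 23920 CPM in vehicle replicates 1 and 2. Of all recovered reads the set took 2.36%, 1.94% and 2.14% in JIB-04, against 2.13% and 2.29% in vehicle. The median of the members, on the log2(CPM + 1) scale relative to the vehicle mean, was 0.08, -0.34 and -0.10 in JIB-04 replicates 1, 2 and 3, against -0.08 and 0.08 in vehicle replicates 1 and 2. By these medians JIB-04 replicate 1 was close to vehicle replicate 2, JIB-04 replicate 3 was close to vehicle replicate 1, and JIB-04 replicate 2 lay below the other 4 libraries. The SD of the JIB-04 medians, 0.21 (n = 3), was larger than the median log2 fold change of the set. Without JIB-04 replicate 2 that median was -0.01, with 18 members negative and 13 positive. Without JIB-04 replicate 1 it was -0.25, with 31 negative, and 11 members were lower at an unadjusted p under 0.05, but 0 at an adjusted one (lowest limma adjusted p 0.105). In that fit 9.0% of all genes were lower at an unadjusted p under 0.05, against 2.51% with all libraries. Without vehicle replicate 2 the median was -0.04 and without vehicle replicate 1 it was -0.20.

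**Figure D2:**
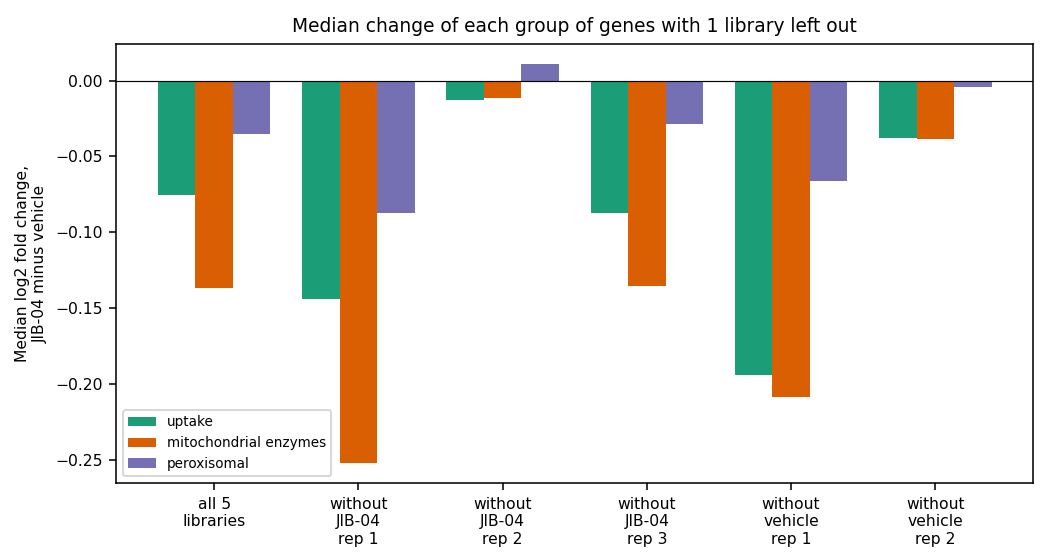
Median log2 fold change, JIB-04 minus vehicle, of the 4 uptake genes, the 25 genes of mitochondrial enzymes and the 2 peroxisomal genes, with all 5 libraries and with each library left out in turn. Bars for the mitochondrial enzymes reach -0.25 where JIB-04 replicate 1 is left out, and -0.01 where JIB-04 replicate 2 is.

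By step, the median log2 fold change was -0.08 for the 4 uptake genes and -0.14 for the 25 mitochondrial genes. Acad11, Eci2 and Ech1 are also found in peroxisomes and were counted with the mitochondrial genes. The uptake and mitochondrial medians were -0.19 and -0.21 without vehicle replicate 1, both -0.04 without vehicle replicate 2, both -0.01 without JIB-04 replicate 2, and -0.14 and -0.25 where JIB-04 replicate 1 was left out. The 2 peroxisomal genes had a median of -0.04, a sign that turned to 0.02 with plain library totals and 0.01 without JIB-04 replicate 2. With plain library totals the median of all genes tested was 0.04, above that of the peroxisomal genes. In JIB-04 replicate 2 the medians relative to the vehicle mean were -0.23, -0.36 and -0.13 for uptake, mitochondrial and peroxisomal genes. In JIB-04 replicate 1 they were 0.09, 0.08 and 0.07, and in JIB-04 replicate 3 they were -0.12, -0.10 and -0.05. The steps were not tested against each other, since each rests on the same 5 libraries. The number of members also differed widely between them.

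Levels per exon length spread over the set by orders of magnitude and kept nearly the same order in all libraries. Fabp3, the heart type cytosolic fatty acid binding protein, was the highest, averaging 5519 and 5871 CPM per kb in JIB-04 and vehicle libraries. Lpl followed at 879 and 919 and Hadhb at 736 and 763. The lowest was Acad10, an acyl-CoA dehydrogenase family member, at 1.66 and 1.73 CPM per kb. Of the 31 members, 11 held the same rank in all 5 libraries, and no rank moved by more than 5 places. Acot13 moved by 5, ranking 10 in JIB-04 replicate 2 and 13 to 15 in the other libraries.

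**Figure D3:**
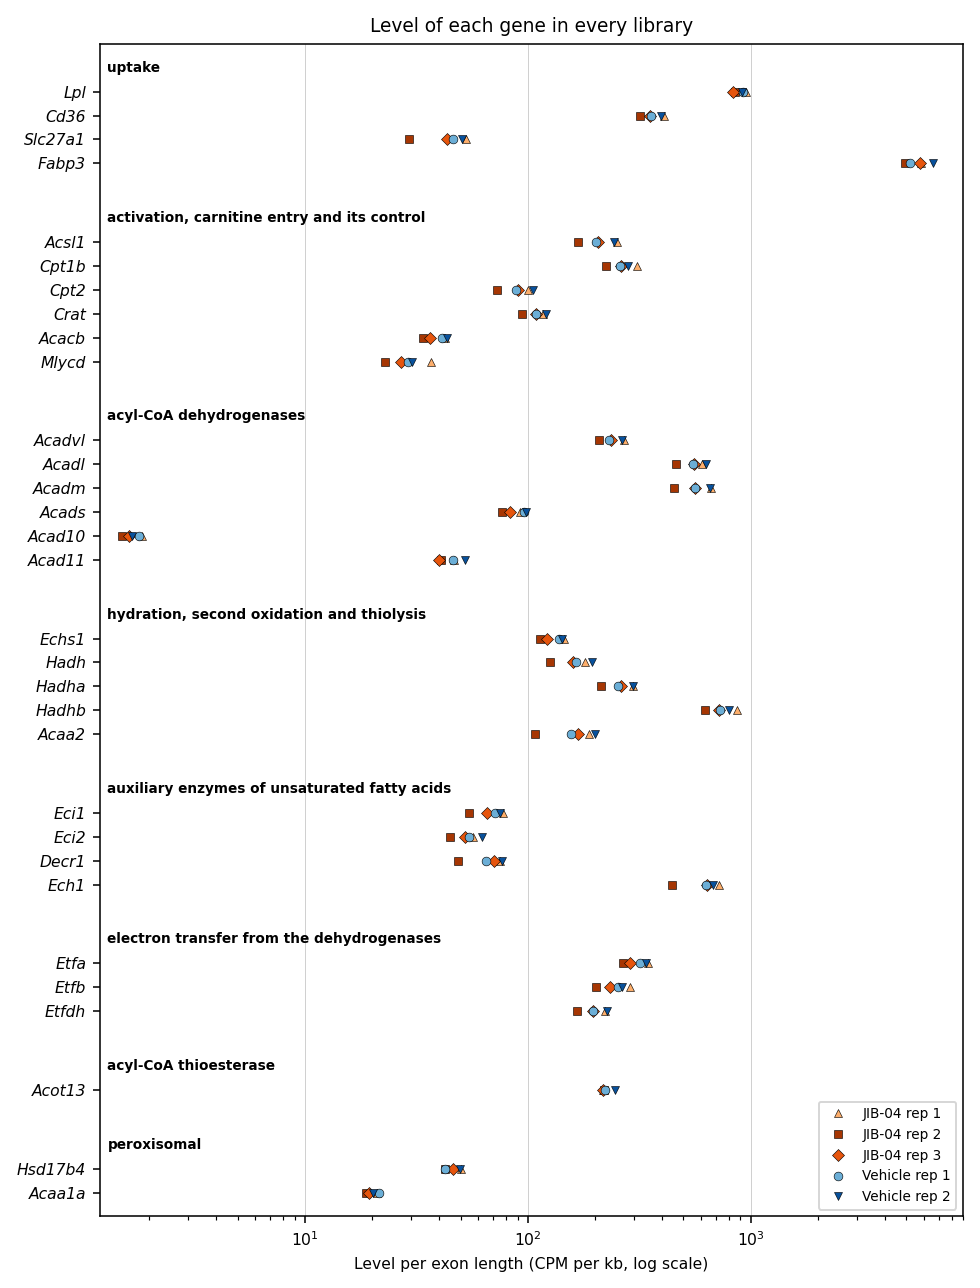
Level of each gene in every library, in CPM per kb of exon on a log axis, with genes grouped by step and symbols for the 5 libraries. Fabp3 is highest in every library and Acad10 lowest, and the 5 libraries of a gene lie close together against the spread between genes.

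Among the uptake genes, 0 of 4 passed the test and the groups overlapped in each. Cd36, which carries fatty acids across the plasma membrane of cardiomyocytes and capillary endothelium (chromosome 5, 17781690 to 17888959 on mm10), had 1446, 1133 and 1256 CPM in JIB-04 replicates 1, 2 and 3, against 1268 and 1398 CPM in vehicle replicates 1 and 2. Its highest value was in JIB-04 replicate 1 and its lowest in JIB-04 replicate 2. Limma gave a log2 fold change of -0.07 ± 0.13 (SE, adjusted p = 0.932), and the 95% interval was -0.38 to 0.25. Lpl, lipoprotein lipase, had 3937, 3500 and 3417 CPM in JIB-04, against 3816 and 3751 CPM in vehicle. Both vehicle values lay inside the JIB-04 range. Fabp3 had 4797, 4076 and 4753 CPM in JIB-04, against 4270 and 5394 CPM in vehicle, and here the vehicle libraries differed by more than the group means did. Slc27a1, fatty acid transport protein 1, had the most negative log2 fold change of the set, -0.25 ± 0.22 (SE, limma adjusted p = 0.866). Its value ran from -0.44 without JIB-04 replicate 1 to -0.018 without JIB-04 replicate 2. Where vehicle replicate 1 was left out, that of Acaa2 (-0.41) was more negative than that of Slc27a1 (-0.32). Slc27a1 had 150.5, 83.0 and 123 CPM in JIB-04, against 131 and 144.5 CPM in vehicle. JIB-04 replicate 2 was at 60.2% of the vehicle mean, and JIB-04 replicate 1 was the highest of the 5 libraries.

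None of the 6 genes of activation, carnitine entry and its control passed the test, and JIB-04 replicate 2 was the lowest library in each. Acsl1, the long chain acyl-CoA synthetase most used in heart, had 1053, 700.1 and 862.5 CPM in JIB-04, against 844 and 1015 CPM in vehicle. Cpt1b, the muscle isoform of carnitine palmitoyltransferase 1 and the regulated entry step on the outer mitochondrial membrane (chromosome 15, 89416405 to 89425862), had 898, 647.5 and 757 CPM in JIB-04, against 749.8 and 815 CPM in vehicle. For both genes JIB-04 replicate 1 was above both vehicle libraries and JIB-04 replicate 2 below them. The log2 fold change of Cpt1b was -0.04 ± 0.14 (SE, limma adjusted p = 0.966). Its sign turned to 0.013 with plain library totals, where the median of all genes tested was 0.04. The interval, -0.38 to 0.30, leaves room for a change of either sign. Cpt2, the inner membrane partner, had 239, 173 and 214 CPM in JIB-04, against 209.7 and 251 CPM in vehicle. Crat, which exchanges short acyl groups between coenzyme A and carnitine, averaged 487.5 ± 54.4 CPM in JIB-04 (SD, n = 3) and 522 ± 40.3 CPM in vehicle (SD, n = 2).

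Malonyl-CoA, which inhibits carnitine palmitoyltransferase 1, is made by acetyl-CoA carboxylase 2 (Acacb) and removed by malonyl-CoA decarboxylase (Mlycd). Acacb had 375.5, 298 and 321 CPM in JIB-04, against 363 and 381 CPM in vehicle, with a log2 fold change of -0.17 ± 0.11 (SE, limma adjusted p = 0.821). JIB-04 replicate 1 lay between the vehicle libraries and the other JIB-04 libraries below them. Mlycd had 78.2, 48.7 and 57.45 CPM in JIB-04, against 61.8 and 64.1 CPM in vehicle, and JIB-04 replicate 1 stood 0.31 above the vehicle mean on the log2(CPM + 1) scale, the widest such gap of the 31 members in that library. Per exon length, the ratio of Mlycd to Acacb was 0.86, 0.67 and 0.74 in JIB-04 replicates 1, 2 and 3, against 0.70 and 0.69 in vehicle replicates 1 and 2. The ratio in JIB-04 replicate 1 was the highest, and the vehicle ratios lay inside the JIB-04 range.

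The acyl-CoA dehydrogenases open each round of beta oxidation, with one enzyme for each range of chain lengths. Acadvl, for very long chains, had 588, 454 and 512 CPM in JIB-04, against 502 and 576 CPM in vehicle. Acadl, for long chains, had 1159, 883 and 1069 CPM in JIB-04, against 1052 and 1213 CPM in vehicle. Acadm, for medium chains, had 1360, 929 and 1148 CPM in JIB-04, against 1153 and 1352 CPM in vehicle. JIB-04 replicate 2 was the lowest library in all 3 genes, while JIB-04 replicate 1 was the highest for Acadvl and Acadm and lay between the vehicle libraries for Acadl. Acads, for short chains (chromosome 5, 115110299 to 115119346), had 172, 143 and 155 CPM in JIB-04, against 179.6 and 184 CPM in vehicle. Its groups did not overlap. Its log2 fold change was -0.22 ± 0.086 (SE), with the lowest unadjusted p of the set at 0.0401, and a limma adjusted p of 0.75 over all genes. The log2 fold change of Acads ran from -0.29 (JIB-04 replicate 1 left out) to -0.16 (JIB-04 replicate 2 left out). Acad11, which acts on 4-hydroxy acids and is also found in peroxisomes, had 185, 161 and 159 CPM in JIB-04, against 183 and 207 CPM in vehicle, with a log2 fold change of -0.21 (limma adjusted p = 0.793). Acad10 was at 6.40 ± 0.68 CPM in JIB-04 (SD, n = 3) and 6.69 ± 0.34 CPM in vehicle (SD, n = 2).

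Hydration, the further dehydrogenation and thiolysis of long chains are done by the trifunctional protein, whose alpha and beta subunits are encoded by Hadha and Hadhb. These are head to head neighbours on chromosome 5, with 272 bases between their RefSeq start sites. Hadha had 1197, 858 and 1054 CPM in JIB-04, against 1016 and 1188 CPM in vehicle, and Hadhb had 1800, 1295 and 1495 CPM in JIB-04, against 1511 and 1662 CPM in vehicle. Both were highest in JIB-04 replicate 1 and lowest in JIB-04 replicate 2. The ratio of Hadha to Hadhb per exon length was 0.344, 0.343 and 0.365 in JIB-04, against 0.348 and 0.370 in vehicle, and the groups overlapped. For short chains, Echs1, an enoyl-CoA hydratase, averaged 198 ± 26.1 CPM in JIB-04 (SD, n = 3) and 219 ± 4.62 CPM in vehicle (SD, n = 2). Hadh, a 3-hydroxyacyl-CoA dehydrogenase, averaged 278 ± 48.9 CPM in JIB-04 and 321 ± 36.7 CPM in vehicle, with a log2 fold change of -0.22 (limma adjusted p = 0.836). Acaa2, the mitochondrial thiolase (chromosome 18, 74779212 to 74806207), had 287, 163 and 254 CPM in JIB-04, against 238 and 304 CPM in vehicle. JIB-04 replicate 2 stood at 60.2% of the vehicle mean, next to Slc27a1 the lowest share of any member. The other JIB-04 libraries lay between the vehicle libraries.

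Auxiliary enzymes prepare the double bonds of unsaturated fatty acids, and 0 of 4 passed the test. Decr1, a dienoyl-CoA reductase, had 221, 144 and 209 CPM in JIB-04, against 193 and 227 CPM in vehicle. Ech1, a dienoyl-CoA isomerase, had 917, 562 and 808 CPM in JIB-04, against 803 and 860.2 CPM in vehicle. In both, JIB-04 replicate 2 stood apart below the other 4 libraries, at 68.3% and 67.5% of the vehicle mean. The enoyl-CoA isomerase genes Eci1 and Eci2 had log2 fold changes of -0.16 and -0.19 (limma adjusted p = 0.862 and 0.821).

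None of the 3 electron transfer genes passed the test. Etfa, the alpha subunit of the electron transfer flavoprotein, had 484, 374 and 399 CPM in JIB-04, against 443.5 and 472 CPM in vehicle. Etfb, the beta subunit, had 258, 181 and 209.6 CPM in JIB-04, against 228 and 236 CPM in vehicle. The ratio of Etfa to Etfb per exon length was 1.25 ± 0.07 in JIB-04 (SD, n = 3) and 1.26 ± 0.03 in vehicle (SD, n = 2), so the subunit ratio differed by less than the spread between libraries. Etfdh, which passes the electrons on to ubiquinone, averaged 470.5 ± 67.3 CPM in JIB-04 and 509.9 ± 54.5 CPM in vehicle. Acot13, a mitochondrial acyl-CoA thioesterase (chromosome 13, 24817955 to 24831489), had 156, 158 and 157 CPM in JIB-04, against 159.5 and 177 CPM in vehicle. The JIB-04 libraries were close to each other for this gene and all lay under the lower vehicle library. The log2 fold change of Acot13 was -0.10 ± 0.067 (SE, limma adjusted p = 0.831).

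In the peroxisome, Hsd17b4 encodes the bifunctional enzyme of hydration and dehydrogenation and Acaa1a a thiolase. Hsd17b4 had 135, 114 and 124 CPM in JIB-04, against 114 and 133 CPM in vehicle, with a log2 fold change of 0.02 that turned to a negative value without JIB-04 replicate 1 (-0.05) or vehicle replicate 1 (-0.09). It was also the member whose JIB-04 replicate 2 lay between the vehicle libraries. Acaa1a had 36.9, 33.1 and 34.1 CPM in JIB-04, against 38.05 and 35.65 CPM in vehicle (log2 fold change -0.09, limma adjusted p = 0.866). Reads of Acaa1a may be shared with its near copy Acaa1b, which reached at most 0.16 CPM in any library, and how such reads were counted is not given in the sources used here. In JIB-04 replicate 2, Hsd17b4, Acaa1a, Acot13 and Lpl stood at 92.7%, 89.8%, 94% and 92.5% of the vehicle mean, while 16 of the 31 members were under 80%.

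Promoters were read for the 24 members with an entry in the RefSeq table (build GRCm38.p6), in windows of 300 bases from 250 before to 50 after a start site. Cpt1b, Lpl, Crat, Decr1, Acot13, Acaa2 and Hsd17b4 had no window to read. Motifs were searched on both strands. The nuclear receptor core motif AGGTCA, bound by receptors such as the PPAR and ERR families that are known regulators of these genes, was present in 5 of 24 (20.8%), against 18.1% of all 27025 genes in the table, non-coding genes included. The extended form TNAAGGTCA, which contains the core motif, matched 0 of 24 (1.43% of all genes). A direct repeat of the core motif spaced by 1 base, AGGTCANAGGTCA, also matched 0 of 24 (0.0481% of all genes). With so few matches over all genes, 0 of 24 says nothing about the members. The GC box GGGCGG matched 17 of 24 (70.8%), against 38.2% of all genes. The window of Hadhb is shown because it holds most of the stretch between Hadhb and Hadha, and that of Acads because its groups did not overlap. Those of Acadm and Echs1 hold a core motif. Capitals mark AGGTCA or GGGCGG on either strand, and each sequence reads 5′ to 3′ on the strand of its gene.
Hadhb, chr5:30155003-30155302, plus strand: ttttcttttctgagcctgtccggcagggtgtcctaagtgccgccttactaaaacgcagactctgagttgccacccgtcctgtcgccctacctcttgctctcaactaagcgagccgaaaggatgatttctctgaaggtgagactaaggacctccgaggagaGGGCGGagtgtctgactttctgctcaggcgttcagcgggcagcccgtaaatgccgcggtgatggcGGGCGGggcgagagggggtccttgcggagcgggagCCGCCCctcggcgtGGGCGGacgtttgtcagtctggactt
Acads, chr5:115119297-115119596, minus strand: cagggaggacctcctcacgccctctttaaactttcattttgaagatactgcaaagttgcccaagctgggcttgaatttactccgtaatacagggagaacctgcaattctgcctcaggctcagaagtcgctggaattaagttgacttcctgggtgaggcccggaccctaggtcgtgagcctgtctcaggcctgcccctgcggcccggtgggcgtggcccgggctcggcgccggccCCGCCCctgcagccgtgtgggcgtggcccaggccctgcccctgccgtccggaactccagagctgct
Acadm, chr3:153944594-153944893, minus strand: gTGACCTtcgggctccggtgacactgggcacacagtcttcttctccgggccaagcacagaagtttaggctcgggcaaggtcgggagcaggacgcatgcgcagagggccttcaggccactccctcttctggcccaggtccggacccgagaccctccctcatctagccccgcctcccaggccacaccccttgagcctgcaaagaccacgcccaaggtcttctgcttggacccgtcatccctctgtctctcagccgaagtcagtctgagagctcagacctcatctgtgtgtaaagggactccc
Echs1, chr7:140116372-140116671, minus strand: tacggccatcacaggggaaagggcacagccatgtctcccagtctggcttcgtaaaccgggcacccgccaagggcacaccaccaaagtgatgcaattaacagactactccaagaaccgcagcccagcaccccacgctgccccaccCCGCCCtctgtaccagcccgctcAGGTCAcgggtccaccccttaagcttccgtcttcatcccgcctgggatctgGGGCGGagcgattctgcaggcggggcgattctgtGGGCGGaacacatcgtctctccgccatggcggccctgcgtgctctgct
The window of Hadhb held 4 GC boxes and no core motif. That of Acads held 1 GC box, that of Acadm 1 core motif at its first bases, and that of Echs1 1 core motif and 3 GC boxes. A match is a run of letters and was not tied to binding here. The 5 members with a core motif, Acacb, Echs1, Acadm, Cd36 and Acadvl, had log2 fold changes of -0.17, -0.16, -0.14, -0.07 and -0.06. Hadhb and Acads, shown above and without one, had -0.06 and -0.22, but Acads was picked because its groups did not overlap. The other members without a core motif were not set beside these. Motif and log2 fold change were not tested against each other. By position, the 31 members lay on 13 chromosomes, with 6 on chromosome 5 (Cd36, Hadha, Hadhb, Acacb, Acads and Acad10).

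Other genes of the pathway, listed by function, gave 0 calls as well. Of 13 further uptake genes listed, 11 were tested, and 7 of these had negative and 4 positive values, with a median log2 fold change of -0.04. Gpihbp1, which anchors lipoprotein lipase on capillary endothelium, had 39.9, 52.2 and 44.7 CPM in JIB-04, against 54.0 and 57.6 CPM in vehicle (log2 fold change -0.29, limma adjusted p = 0.75). Every JIB-04 value lay below both vehicle values, as in 12.0% of all genes tested. Vldlr, a lipoprotein receptor, and Slc27a6, a fatty acid transport protein, had log2 fold changes of -0.16 and 0.25. Slc27a6 was low, at 0.84, 1.02 and 0.57 CPM in JIB-04, against 0.56 and 0.46 CPM in vehicle, so the pseudocount of 1 shrinks its value, which was 0.55 with a pseudocount of 0.1 and 0.67 with edgeR. Of 13 further activation and carnitine genes, all tested, 9 were negative and 4 positive, with a median of -0.04. Acsl5 and Acsl4, acyl-CoA synthetases, had log2 fold changes of 0.33 and 0.23, and Acss2, an acetyl-CoA synthetase, -0.21. Cpt1a, the liver isoform of carnitine palmitoyltransferase 1, was chosen here for its role. It had 64.6, 52.15 and 56.0 CPM in JIB-04, against 50.6 and 55.8 CPM in vehicle (log2 fold change 0.11, limma adjusted p = 0.869). The ratio of Cpt1b to Cpt1a per exon length was 20.7, 18.5 and 20.2 in JIB-04 replicates 1, 2 and 3, against 22.1 and 21.8 in vehicle replicates 1 and 2. All JIB-04 ratios lay below both vehicle ratios, a difference that was not tested. Slc25a20, the carnitine carrier of the inner membrane and also chosen for its role, had 116, 82.2 and 95.5 CPM in JIB-04, against 92.4 and 112 CPM in vehicle, in the same order of libraries as Cpt1b.

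Of 15 further mitochondrial acyl-CoA genes, all tested, 13 were negative and 2 positive, with a median of -0.16. Acot11, an acyl-CoA thioesterase, had 24.6, 19.7 and 23.2 CPM in JIB-04, against 28.9 and 30.9 CPM in vehicle, a log2 fold change of -0.40 ± 0.11 (SE, limma adjusted p = 0.577). All its JIB-04 values lay below both vehicle values, as they did in 12.0% of all genes tested. Its unadjusted limma p of 0.00751 was the lowest of the wider pathway, and it is named here because its p was small. Over all genes tested, 2.51% were lower at an unadjusted p under 0.05. Hsd17b10 and Echdc3 both had log2 fold changes of -0.18. Of 23 further peroxisomal genes listed, 21 were tested, of which 19 were negative and 2 positive, with a median of -0.10. Pex11a, Phyh and Acot8 had log2 fold changes of -0.21, -0.17 and -0.15. Of 18 lipid droplet and triglyceride genes listed, 16 were tested, of which 12 were negative and 4 positive, with a median of -0.05. Plin4 and Plin2, which coat lipid droplets, had log2 fold changes of -0.26 and 0.18, and Dgat2, which makes triglyceride, -0.37. The value of Dgat2 was -0.56 without vehicle replicate 1, -0.55 without JIB-04 replicate 1 and -0.17 when vehicle replicate 2 or JIB-04 replicate 2 was left out in turn.

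Marker genes of the cell types in the heart differed between the same libraries. In bulk tissue, fewer cells of a type and less RNA per cell cannot be told apart. The 10 cardiomyocyte markers summed to 116100, 88850 and 105100 CPM in JIB-04 replicates 1, 2 and 3, against 104200 and 118300 CPM in vehicle replicates 1 and 2, and none was at 0. Their medians relative to the vehicle mean were -0.0031, -0.36 and -0.08 in JIB-04, against -0.09 and 0.09 in vehicle. JIB-04 replicate 2 thus had the lowest median for these markers as for the fatty acid genes. It was the lowest library in 7 of the 10 (29.5% of all genes), and JIB-04 replicate 3 in 3 (19.9%). The 10 macrophage and monocyte markers with a row all had positive log2 fold changes and summed to 301, 413 and 473 CPM in JIB-04, against 302 and 217 CPM in vehicle. Of 8 fibroblast markers 7 were positive, with sums of 2510, 3632 and 3257 CPM in JIB-04, against 2597 and 2298 CPM in vehicle. The 8 endothelial markers summed to 688, 923 and 763 CPM in JIB-04, against 772.5 and 795 CPM in vehicle. None of these markers was at 0 in any library. The 8 red blood cell markers, all negative and with 2 overlapping alpha globin rows that share reads, summed to 1222, 2443 and 1790 CPM in JIB-04, against 5075 and 3312 CPM in vehicle. The 5 fat cell markers with a row were at or near 0, summing to at most 0.17 CPM in JIB-04 and 0.59 CPM in vehicle, where 3 reads of 1 gene are worth 0.080 to 0.098 CPM. All 5, Adipoq among them, were at 0 in JIB-04 replicate 1. The part of the cardiomyocyte, macrophage, fibroblast, endothelial and red blood cell markers in the values of the fatty acid genes was not tested.

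**Figure D4:**
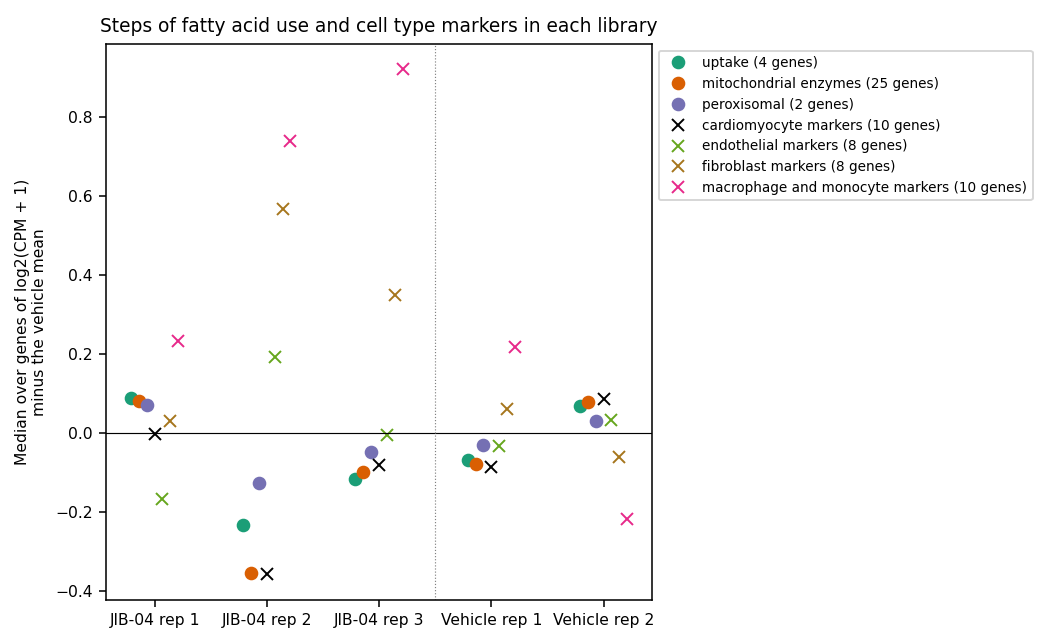
Median over the genes of each list of log2(CPM + 1) minus the vehicle mean, for each JIB-04 library and each vehicle library. Filled circles are the 3 groups of fatty acid genes and crosses are cell type markers. In JIB-04 replicate 2 the mitochondrial enzymes and the cardiomyocyte markers both stand at -0.36, with macrophage markers at 0.74. In JIB-04 replicate 3 the same 3 medians are -0.10, -0.08 and 0.92, and in JIB-04 replicate 1 they are 0.08, -0.0031 and 0.23.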

How the data were processed

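Trizol was used to extract the RNA and a TruSeq stranded mRNA kit to build the libraries, as the labels' protocols state. The submitters' processing notes list, without saying what each did, TopHat2 2.0.12, FastQC 0.11.2, Picard 1.127, edgeR, Subread and featureCounts, and the build mm10. Each deposited file holds a column headed CPM with a single value for each gene. It was taken as a deposited signal scaled by the authors, since the columns sum to 954981.4 to 1046902.5. In every library all values (100%) fell within 0.01 of a whole number of reads, so read counts could be recovered, 32152168 to 37002846 per library. Floors in reads cover counting error only. File starts are counted from 0 (9785 of 17918 matched genes begin 1 base before RefSeq), and positions are printed from 1.

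The members, the step lists, the wider pathway lists and the markers were chosen with earlier results of these data known. Genes were kept by edgeR's filterByExpr (10 reads in enough libraries, 15 in total), which left 14414. R 4.3.3 was used. Log2(CPM + 1), JIB-04 minus vehicle, was tested with limma 3.58.1 (trend option), with 3 residual degrees of freedom and Benjamini-Hochberg adjustment over all genes. Alternatives were edgeR 4.0.16, limma-voom and DESeq2 1.42.0 on recovered reads, other scalings, filters and a pseudocount of 0.1, each library left out, and a block on the replicate number. The fits were checked on simulated data. Named genes are all 31 members and, from each wider list, the 3 with the smallest p, plus Cpt1a and Slc25a20 for their role. A further gene chosen for its role is not reported here. Exon lengths are unions of GENCODE M21 basic exons on GRCm38. Values are mean ± SD over libraries.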

Additional observations from a re-analysis of the deposited data

How the results depend on the processing

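In all, 14 alternatives were tried, and no member passed the threshold in those with more than 1 library in each group. Fits that left 1 vehicle library were read for the size of the log2 fold change only. The median of the members, -0.12 with all libraries, depended on the libraries kept. It ran from -0.25 without JIB-04 replicate 1 to -0.01 without JIB-04 replicate 2. The count over all genes changed from 0 to 85 with DESeq2. It ran from 0 to 29 when 1 JIB-04 library was left out, 29 being without JIB-04 replicate 1. Of 279 member values under other tools, scalings, filters and the block, 278 kept their sign. Cpt1b turned to 0.013 with plain library totals, where the median of all genes tested was 0.04. Of 155 with 1 library left out, 134 kept it. The log2 fold changes that changed sign when 1 library was left out ran from -0.16 to 0.076 for Cpt1b, -0.25 to 0.042 for Acsl1, -0.16 to 0.017 for Cd36, -0.25 to 0.085 for Fabp3 and -0.25 to 0.089 for Mlycd. They ran from -0.16 to 0.036 for Acadvl, -0.27 to 0.0005 for Acadm, -0.21 to 0.032 for Hadha, -0.19 to 0.050 for Hadhb and -0.41 to 0.0054 for Acaa2. They ran from -0.27 to 0.037 for Decr1, -0.30 to 0.051 for Ech1, -0.25 to 0.0013 for Etfb and -0.092 to 0.12 for Hsd17b4. These are 14 members. Slc25a20, which is not a member, ran from -0.20 to 0.070. Leaving out a vehicle library leaves 1, which is assumed to vary like the JIB-04 libraries. With the replicate block the median of the members was -0.12 and 0 members and 0 genes were called. The deviations of libraries of the same number from their group means had correlations of -0.13 for both pairs. These cannot decide whether the numbers pair the hearts, since the deviations of 2 vehicle libraries from their mean mirror each other. With 2 pairs and no label on pairing, the numbers were not taken to pair the hearts. The 95% intervals of 30 of 31 members included 0, that of Acads being the exception, and the widest bounds were -0.80 for Acaa2 and 0.39 for Fabp3.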
